A study of Mus musculus with 18 samples.

Results

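Kidney messenger RNA of mice given a high fat diet together with AOS was set against that of mice given AOS alone, so that the diet is the one labelled difference between groups that both received AOS at 10 mg/kg. The members are the 6 kidney libraries of these 2 groups, out of 18 libraries in the study, taken by their treatment labels. The HFD+AOS group holds 3 libraries (high fat diet with AOS at 10 mg/kg) and the AOS group 3 libraries (AOS at 10 mg/kg, with no diet named in the label). All came from kidney of ICR mice, an outbred stock, at an age of 10 weeks. The other 12 libraries are 3 of high fat diet alone (HFD), 3 of control and 6 of a high fat diet with a faecal transfer (3 labelled HFD+AOS-FMT and 3 HFD+control-FMT). AOS is named here as the labels spell it. The labels give neither the length of the diet, the sex of the mice nor the hour of tissue collection, and no label states whether replicate libraries are separate animals. The p-values therefore measure only how these libraries spread, which may be technical.

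The kidney cortex is made up mostly of proximal tubule cells, which reabsorb glucose, amino acids, phosphate and bicarbonate and draw most of their energy from the oxidation of fatty acids. A high fat diet raises the supply of lipid to these cells, and nuclear receptors of the PPAR family sense fatty acids and set the genes of fatty acid oxidation. Kidney transcripts also follow a daily cycle: ARNTL (BMAL1) with CLOCK or NPAS2 turns on the Per, Cry and Nr1d genes, whose products turn that activity off again, and the loop drives output factors such as DBP, TEF and HLF.

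The values are normalized signal per gene, with the unit not stated by the authors. The sums of the 6 libraries lay between 657957 and 721198. Within a group the libraries correlated across genes at r = 0.9882 to 0.9934 on the log2(value + 1) scale, and between the 2 groups at 0.9847 to 0.9906. Kap, the androgen-regulated kidney protein of the proximal tubule, took 17.2% of the signal in HFD+AOS replicate 1 and 20.4% to 21.7% in the other 5 libraries. Markers of kidney were present throughout: Slc34a1, the phosphate transporter of the proximal tubule, had 3261, 2935 and 2997 in HFD+AOS kidneys, against 2719, 2633 and 2908 in AOS kidneys. Defining markers of the adrenal gland were near 0, with Star at 0.69 to 1.08 and Cyp11a1 at no more than 0.21 in the 6 libraries. Of 12 testis germ cell markers, 6 were listed at 0 in all 6 libraries, and the rest of that list's signal was almost wholly Smcp, a sperm mitochondrial capsule protein whose transcript was present in every kidney library. Smcp had 11.7, 16.3 and 15.5 in HFD+AOS kidneys, against 21.1, 26.1 and 23.0 in AOS kidneys.

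Of 19518 genes in the table, 12031 reached a value of 1 in no fewer than 3 of the 18 libraries and were tested with limma on log2(value + 1), a scale that understates the change of low genes. At a Benjamini-Hochberg adjusted p under 0.05, 0 genes (0%) were called with all 18 libraries in the fit. The smallest limma adjusted p was 0.06104, that of Hlf. Unadjusted p-values under 0.05 were found for 1333 genes (11.1%), of which 656 (5.45%) were higher and 677 (5.63%) lower in HFD+AOS. The 3 HFD+AOS values lay wholly above the 3 AOS values for 1509 genes (12.5%) and wholly below them for 1407 genes (11.7%), together 2916 genes (24.2%). The median log2 difference over all genes tested was -0.0017.

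Control replicate 3, a library outside both groups, had 2.48% of its signal in Kap and 125 of Star. It enters this comparison only through the spread that all groups share and through the filter on low values. The fit without it kept the same 12031 genes. Without it, limma called 158 genes (1.31%), 92 higher (0.765%) and 66 lower (0.549%) in HFD+AOS, and 147 of the 158 had an unadjusted p under 0.05 with all 18 libraries. These calls are the ones meant below by "called without control replicate 3". All 158 had groups that did not overlap. Their differences were small: the median size was 0.38 on the log2 scale, the range 0.19 to 1.98, and 6 genes reached 1. The calls also rested on single libraries of both groups. With control replicate 3 left out, 2 genes were called without HFD+AOS replicate 1, 33 without HFD+AOS replicate 2 and 110 without HFD+AOS replicate 3, and 1 was called without AOS replicate 1, 44 without AOS replicate 2 and 9 without AOS replicate 3. With quantile normalization added, 179 were called, 124 higher and 55 lower. In a fit to only the 6 libraries of these 2 groups, 2 genes were called, both lower, and 1 of them was among the 158. Ranges given below as over all settings cover all planned settings and leave out those chosen after seeing the data.

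**Figure D1:**
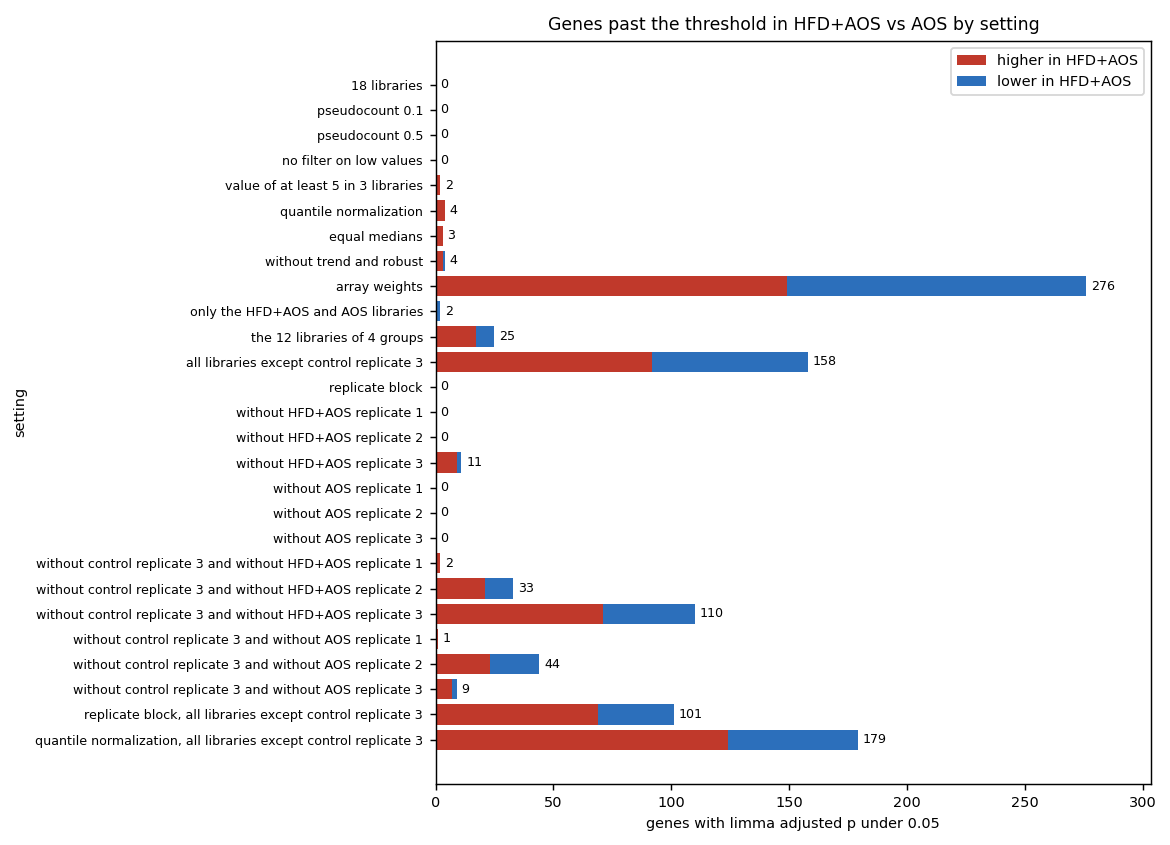
Number of genes with a limma adjusted p under 0.05 in HFD+AOS against AOS (horizontal axis) for each setting of the fit (vertical axis), split into genes higher and lower in HFD+AOS. With all 18 libraries the count is 0, without control replicate 3 it is 158, and with array weights it is 276.

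Among the 12 higher genes with the smallest p, the largest differences were those of Bcl6 and Rarres2. Bcl6 encodes a zinc finger repressor known from germinal centre B cells, which also restrains lipid genes in mouse liver. Its level was 21.3, 31.5 and 22.1 in HFD+AOS kidneys, against 5.08, 3.87 and 8.12 in AOS kidneys. The lowest HFD+AOS library was over the highest AOS library by a wide margin, and the log2 difference was 1.98 ± 0.39 (SE, n = 3 each; limma adjusted p = 0.1219 with 18 libraries and 0.03167 without control replicate 3; range over all settings 0.02043 to 0.39). Rarres2 encodes chemerin, a secreted chemoattractant and adipokine. Its level was 258, 242 and 97.1 in HFD+AOS kidneys, against 60.4, 65.3 and 37.6 in AOS kidneys, a log2 difference of 1.76 ± 0.32 (SE, n = 3 each; limma adjusted p = 0.1087, range over all settings 0.006885 to 0.3533). Replicate 3 was the lowest library of each group for Rarres2.

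Ppara, the nuclear receptor that drives fatty acid oxidation, had 20.8, 18.3 and 14.7 in HFD+AOS kidneys, against 10.6, 11.5 and 10.5 in AOS kidneys. The groups did not overlap, and the log2 difference was 0.67 ± 0.11 (SE, n = 3 each; limma adjusted p = 0.07056 with 18 libraries, range over all settings 0.008856 to 0.3487). Lclat1, which remodels the acyl chains of cardiolipin, the lipid of the inner mitochondrial membrane, had 20.2, 17.6 and 16.5 in HFD+AOS kidneys, against 11.6, 12.9 and 13.8 in AOS kidneys. Its log2 difference was 0.47 ± 0.08 (SE, n = 3 each).

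The other genes of this set differed by less, with tight replicates. Lcorl, a relative of the nuclear receptor corepressor LCOR, Fcho2, a membrane-bending protein of clathrin-coated pits, and Klf12, a Krüppel-like repressor, had log2 differences of 0.40 ± 0.07, 0.42 ± 0.08 and 0.41 ± 0.08 (SE, n = 3 each). Pde8a, a cyclic AMP phosphodiesterase, had 26.2, 25.3 and 24.1 in HFD+AOS kidneys, against 18.9, 19.4 and 19.3 in AOS kidneys. Ndel1, a regulator of the dynein motor, and Ctbs, a lysosomal enzyme that breaks down N-glycans, had log2 differences of 0.32 ± 0.07 and 0.28 ± 0.06 (SE, n = 3 each). The genes described here were all called without control replicate 3.

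The 12 lower genes with the smallest p had log2 differences between -0.26 and -0.56. Ttll1, the catalytic subunit of a tubulin polyglutamylase, had 2.98, 2.91 and 2.97 in HFD+AOS kidneys, against 4.44, 4.06 and 5.31 in AOS kidneys, a log2 difference of -0.50 ± 0.08 (SE, n = 3 each; limma adjusted p = 0.07056, range over all settings 0.01212 to 0.3487). Tpgs1, another subunit of the same enzyme complex, had 20.0, 23.3 and 23.4 in HFD+AOS kidneys, against 31.0, 31.2 and 30.5 in AOS kidneys. Dynll1, a dynein light chain, had 40.6, 45.1 and 47.6 in HFD+AOS kidneys, against 68.0, 59.5 and 71.0 in AOS kidneys. In each of these genes every HFD+AOS library was below every AOS library.

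Slc35b1, an ATP carrier of the endoplasmic reticulum, had 39.0, 41.0 and 38.7 in HFD+AOS kidneys, against 49.96, 48.0 and 53.0 in AOS kidneys, a log2 difference of -0.34 ± 0.06 (SE, n = 3 each; limma adjusted p = 0.07056, range over all settings 0.01656 to 0.3487). Npnt encodes nephronectin, a basement membrane ligand of integrin alpha8 beta1 that is needed for kidney development in mice. It had 23.7, 24.03 and 24.2 in HFD+AOS kidneys, against 35.2, 30.4 and 39.2 in AOS kidneys, a log2 difference of -0.52 ± 0.10 (SE, n = 3 each). Lamtor1, the membrane anchor of the Ragulator complex that brings mTORC1 to the lysosome, had 76.3, 78.9 and 77.8 in HFD+AOS kidneys, against 96.1, 91.8 and 92.2 in AOS kidneys. Ninj1, a membrane protein of plasma membrane rupture, Bod1, a mitotic chromosome protein, Sumo3, a ubiquitin-like modifier, Tmem192, a lysosomal membrane protein, Tmem109 and Npdc1 had log2 differences from -0.41 to -0.30. All 12 were called without control replicate 3.

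**Figure D2:**
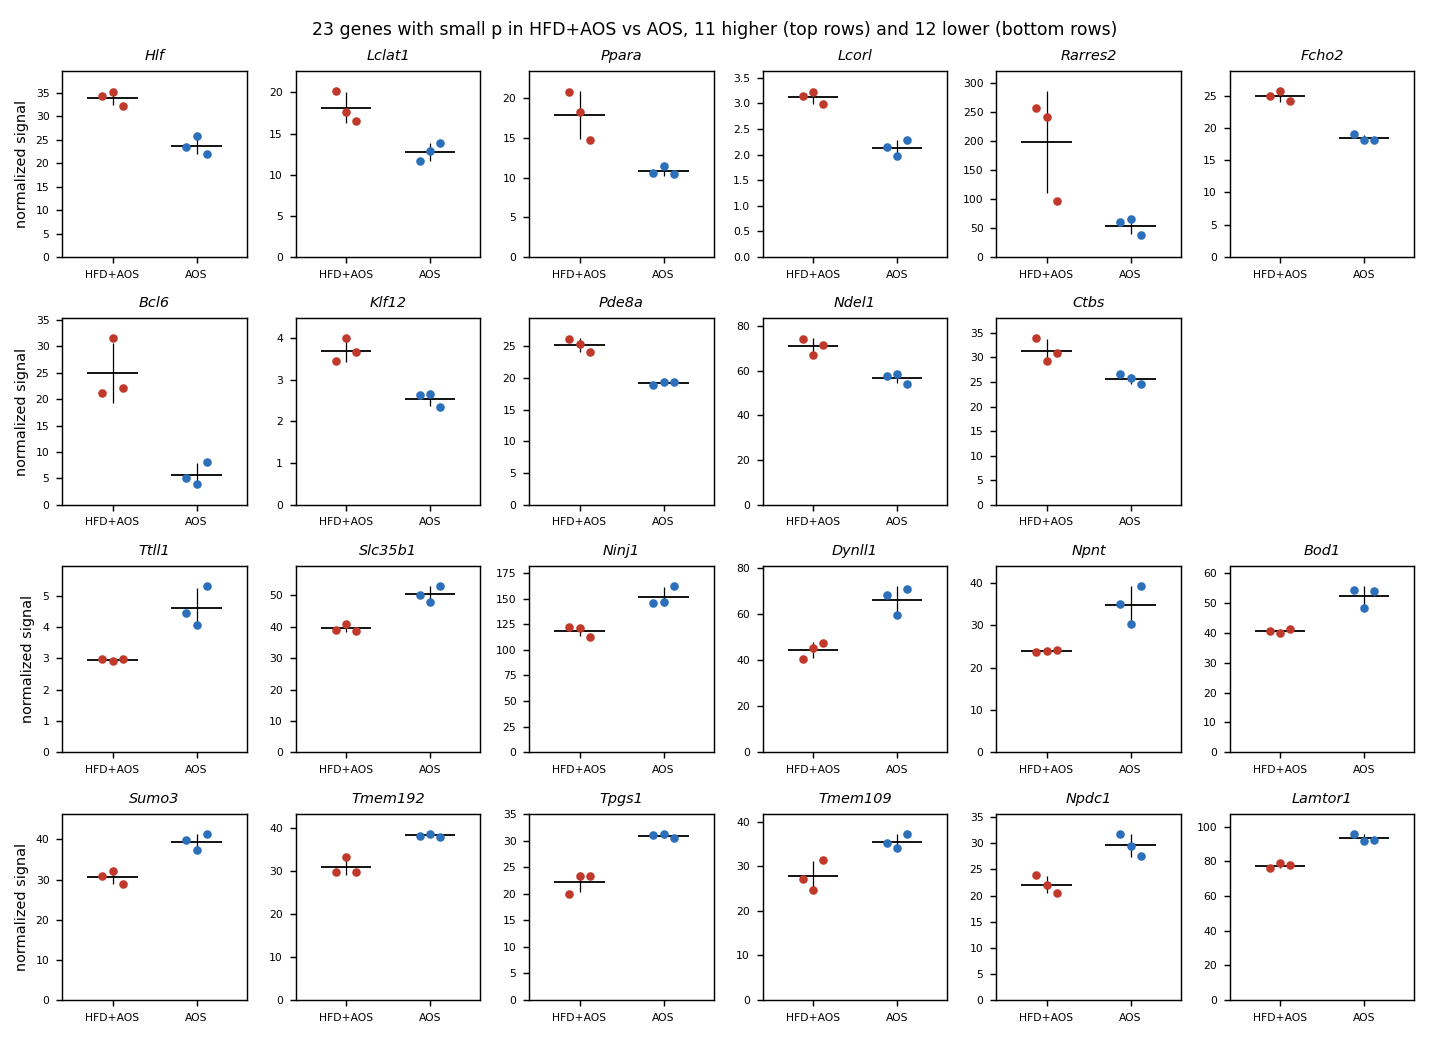
Normalized signal (vertical axes, each starting at 0) of 23 of the 24 genes with the smallest p in the 3 HFD+AOS and the 3 AOS libraries. Points are libraries, horizontal bars means and vertical bars 1 SD; in each panel the groups do not overlap, and Bcl6 and Rarres2 show the largest differences.

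Circadian genes differed on both sides of the clock loop. Of 28 members of the core loop and output lists, 27 were tested, and at an unadjusted p under 0.05 there were 11 higher and 3 lower in HFD+AOS, beside 5.45% and 5.63% of all genes. Their groups did not overlap for 15 higher and 3 lower members, beside 12.5% and 11.7% of all genes. Without control replicate 3, limma called 6 higher (Per3, Ciart, Tef, Hlf, Wee1 and Nampt) and 2 lower (Arntl and Npas2), beside 0.765% and 0.549% of all genes. Control replicate 3 lay far from the other controls in each of these genes except Hlf, so leaving it out narrows their spread in particular. The limma adjusted p of Nampt was 0.6492 with all libraries and 0.02943 without that library, and that of Ciart was 0.3806 and 0.008126. The called shares rest on this, and no enrichment of clock genes is read from them. The median log2 difference of the 27 was 0.32, beside -0.0017 over all genes.

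The 300 bases around the transcription start are shown for 4 of these genes because the short elements through which the loop acts can be read in them. These 4 were picked for holding a match. The sequences are from RefSeq (GRCm38.p6), run from 250 bases before to 50 bases after the start, 5′ to 3′ on the strand of the gene, and capitals mark the motifs. The motifs searched on both strands were the E-box CACGTG, bound by ARNTL with CLOCK or NPAS2, the D-box as TTATGTAA or TTACGTAA, bound by DBP, TEF, HLF and NFIL3, and the ROR element as TAGGTCA or TGGGTCA, bound by RORA and the NR1D receptors. Per3 lies on the minus strand at chr4:151044616-151044915, Ciart on the minus strand at chr3:95882179-95882478, Tef on the plus strand at chr15:81802423-81802722 and Nfil3 on the minus strand at chr13:52980990-52981289.
Per3: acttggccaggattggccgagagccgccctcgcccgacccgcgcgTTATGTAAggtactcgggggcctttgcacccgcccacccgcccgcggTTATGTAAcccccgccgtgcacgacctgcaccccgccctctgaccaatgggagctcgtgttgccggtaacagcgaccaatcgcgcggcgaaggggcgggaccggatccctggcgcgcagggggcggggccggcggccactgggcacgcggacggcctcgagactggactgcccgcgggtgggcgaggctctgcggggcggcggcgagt
Ciart: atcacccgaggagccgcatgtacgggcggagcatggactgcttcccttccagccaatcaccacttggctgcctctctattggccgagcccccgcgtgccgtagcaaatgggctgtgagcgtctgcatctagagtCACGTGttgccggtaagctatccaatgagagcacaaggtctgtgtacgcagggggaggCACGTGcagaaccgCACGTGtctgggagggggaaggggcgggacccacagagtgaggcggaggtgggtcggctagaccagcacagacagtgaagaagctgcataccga
Tef: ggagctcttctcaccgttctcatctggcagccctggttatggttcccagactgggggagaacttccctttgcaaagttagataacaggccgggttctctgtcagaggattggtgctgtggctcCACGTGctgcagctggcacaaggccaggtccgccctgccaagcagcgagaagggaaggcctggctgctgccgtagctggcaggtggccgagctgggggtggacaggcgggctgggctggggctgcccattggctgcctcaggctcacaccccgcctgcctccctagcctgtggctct
Nfil3: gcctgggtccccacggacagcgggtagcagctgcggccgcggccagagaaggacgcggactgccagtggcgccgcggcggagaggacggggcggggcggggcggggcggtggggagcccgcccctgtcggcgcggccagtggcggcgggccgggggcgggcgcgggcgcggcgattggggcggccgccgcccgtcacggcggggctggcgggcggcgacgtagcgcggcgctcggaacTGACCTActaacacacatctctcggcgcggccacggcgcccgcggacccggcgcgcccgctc
Per3 holds 2 D-boxes, 205 and 158 bases before the start. Ciart holds 3 E-boxes at 116, 58 and 44 bases before it, Tef an E-box at 127 bases, and Nfil3 a ROR element, read on the opposite strand, at 12 bases. Among the 9528 tested genes with a RefSeq promoter, 10.3% held an E-box, 0.672% a D-box and 5.25% a ROR element in this window. Of the 22 clock list members with one, 4 (18.2%) held an E-box, 1 (4.55%) a D-box and 1 (4.55%) a ROR element. Per1 and Cry1 also held an E-box, while Arntl, Npas2, Nr1d2, Dbp and Hlf held none of the motifs. Only exact letters were searched, so other forms of an element were not counted. A match of letters is a description and shows no binding.

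On the activating side of the loop, Arntl had 2.41, 1.84 and 1.48 in HFD+AOS kidneys, against 6.75, 4.59 and 8.24 in AOS kidneys. Npas2 had 1.90, 1.48 and 1.06 in HFD+AOS kidneys, against 5.19, 3.49 and 6.25 in AOS kidneys. The groups were well apart in both genes, with log2 differences of -1.35 ± 0.39 and -1.26 ± 0.39 (SE, n = 3 each). The limma adjusted p of Arntl was 0.2212 with 18 libraries and 0.03167 without control replicate 3 (range over all settings 0.02569 to 0.5227), and that of Npas2 was 0.2508 and 0.02859 (range 0.02043 to 0.5569). Clock itself, the constitutive partner, had 5.67, 5.46 and 5.07 in HFD+AOS kidneys, against 5.74, 5.69 and 5.51 in AOS kidneys.

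On the repressing side, Per3 had 5.31, 5.18 and 6.15 in HFD+AOS kidneys, against 2.37, 2.82 and 2.08 in AOS kidneys, and Per2 had 5.28, 4.75 and 6.43 in HFD+AOS kidneys, against 2.03, 3.38 and 2.32 in AOS kidneys. Every HFD+AOS library was higher, by 0.94 ± 0.37 and 0.87 ± 0.30 on the log2 scale (SE, n = 3 each). Per1 had 4.57, 3.17 and 5.17 in HFD+AOS kidneys, against 2.88, 3.43 and 3.47 in AOS kidneys, and overlapped. Nr1d2, which codes for the heme receptor REV-ERB beta, had 28.4, 24.8 and 28.8 in HFD+AOS kidneys, against 17.4, 20.3 and 13.3 in AOS kidneys, without overlap. Its paralog Nr1d1 overlapped, with 35.7, 40.3 and 40.1 in HFD+AOS kidneys, against 37.7, 31.9 and 19.0 in AOS kidneys. Ciart, a repressor of the ARNTL and CLOCK pair whose promoter carries 3 E-boxes, had 5.18, 7.76 and 8.72 in HFD+AOS kidneys, against 1.84, 2.12 and 0.81 in AOS kidneys, a log2 difference of 1.68 ± 0.69 (SE, n = 3 each).

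Among the output factors, Dbp had 69.7, 72.3 and 92.9 in HFD+AOS kidneys, against 26.0, 36.5 and 11.5 in AOS kidneys. The groups did not overlap, but the log2 difference of 1.76 ± 0.88 (SE, n = 3 each) was not called in either fit. This SE is from the spread shared by all 6 groups, which includes control replicate 3, and not from the HFD+AOS and AOS libraries alone. Tef had 94.4, 101 and 101 in HFD+AOS kidneys, against 65.4, 75.0 and 57.2 in AOS kidneys, a log2 difference of 0.59 ± 0.24 (SE, n = 3 each; limma adjusted p = 0.3698 with 18 libraries, range over all settings 0.02859 to 0.6819). Hlf had the smallest p in this comparison among all genes. It had 34.4, 35.2 and 32.2 in HFD+AOS kidneys, against 23.5, 25.7 and 22.1 in AOS kidneys, a log2 difference of 0.50 ± 0.07 (SE, n = 3 each; limma adjusted p = 0.06104, range over all settings 0.008756 to 0.3451). Nfil3, a repressor that competes for the same D-box sites, was on the other side, with 3.21, 0.94 and 2.59 in HFD+AOS kidneys, against 4.73, 3.50 and 6.84 in AOS kidneys.

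The hour of collection is not in the labels, so the time of collection and the diet cannot be told apart for these genes. The same limit holds for every other gene compared here, above and below. Control replicate 3 also differed from its group in clock genes: Dbp had 2.76, 6.90 and 90.6 in controls, and Arntl 12.5, 10.1 and 2.71. In the groups without AOS, Dbp had 3.26, 10.2 and 3.36 in HFD kidneys and Arntl 10.9, 8.64 and 10.0. Hlf did not share the deviation of control replicate 3, with 20.2, 23.7 and 21.8 in HFD kidneys, against 21.2, 23.2 and 24.6 in controls.

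**Figure D3:**
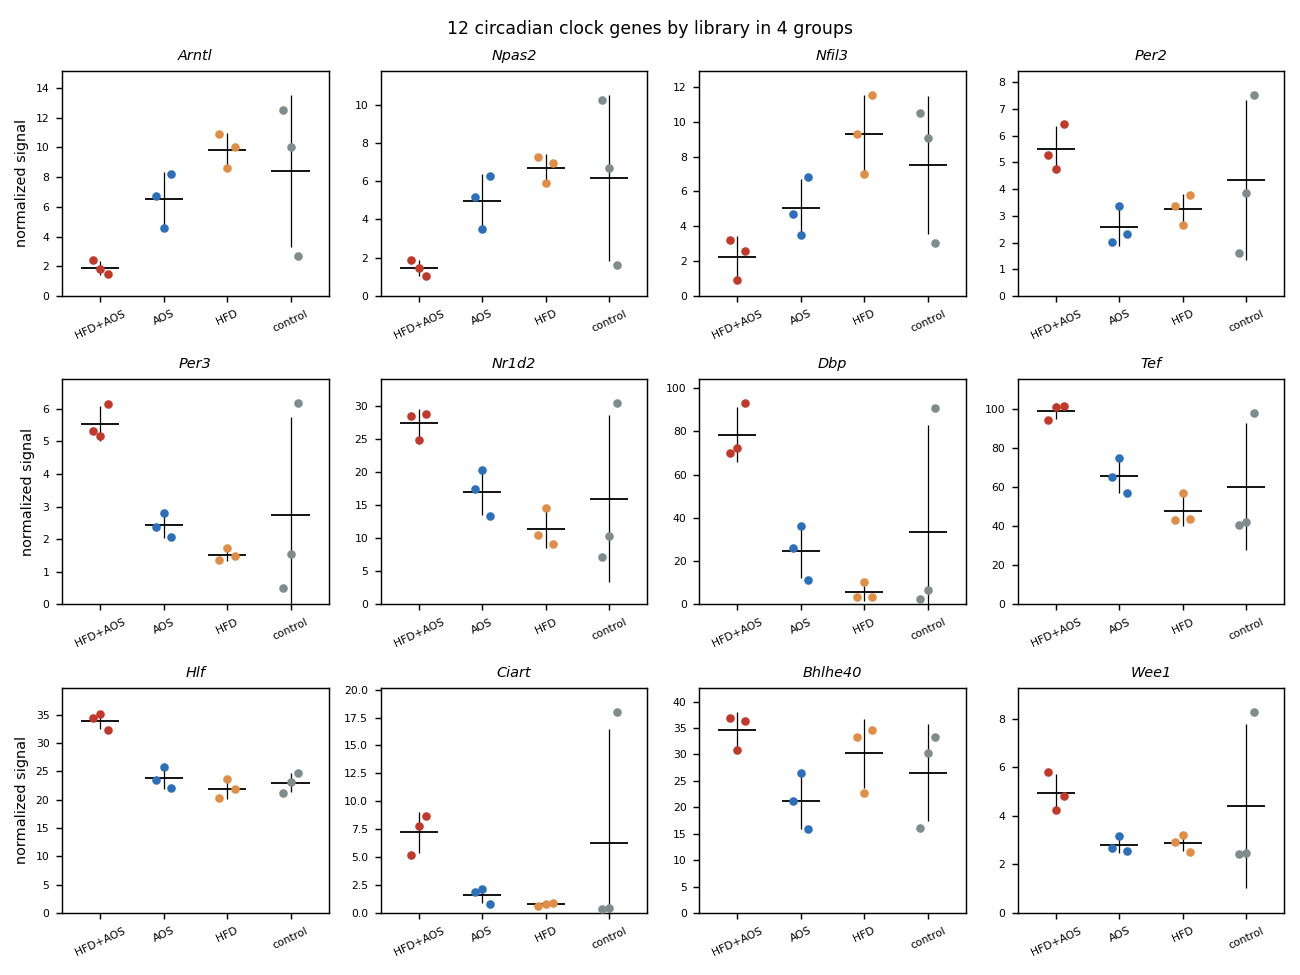
Normalized signal (vertical axes) of 12 circadian genes in the HFD+AOS, AOS, HFD and control libraries; points are libraries, horizontal bars means and vertical bars 1 SD, not drawn under 0. Arntl, Npas2 and Nfil3 are lower and the other 9 genes higher in all 3 HFD+AOS than in all 3 AOS libraries, and the third control library lies far from the other controls for Per3, Dbp, Tef and Ciart.

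Genes of lipid handling lay in both directions by unadjusted p. Of 29 tested members of the list of PPARA targets and fatty acid oxidation, 2 were higher and 0 lower at an unadjusted p under 0.05, beside 5.45% and 5.63% of all genes, so the higher share was near that of all genes. Both were called without control replicate 3, beside 0.765% of all genes, and the list median was 0.12. They were Ppara itself and Cpt1a, the enzyme that admits fatty acids into mitochondria, which had 135, 124 and 112 in HFD+AOS kidneys, against 88.2, 101 and 78.7 in AOS kidneys. Its log2 difference was 0.47 ± 0.11 (SE, n = 3 each; limma adjusted p = 0.1467 with 18 libraries, range over all settings 0.02043 to 0.481). Acadm, which starts the oxidation of medium-chain fatty acids, lay the other way, with 325, 458 and 429 in HFD+AOS kidneys, against 570, 484 and 478 in AOS kidneys.

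Ppard, another lipid-sensing receptor, was among the 66 lower genes of the 158. It had 8.23, 9.5 and 8.21 in HFD+AOS kidneys, against 29.4, 16.4 and 27.7 in AOS kidneys, a log2 difference of -1.36 ± 0.48 (SE, n = 3 each). Without AOS it had 32.4, 28.3 and 30.4 in HFD kidneys, against 54.7, 61.6 and 9.47 in controls. As for Arntl, control replicate 3 was the library apart, and the part of the hour of collection was not tested. Ppard stands outside the list and was singled out after its values were seen.

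In the list of fatty acid synthesis, with 21 members tested, 2 were higher and 4 lower at an unadjusted p under 0.05, beside 5.45% and 5.63% of all genes, and the list median was -0.10. Scd1, the desaturase that makes oleate, had 15.6, 13.8 and 22.3 in HFD+AOS kidneys, against 42.6, 42.0 and 37.1 in AOS kidneys, a log2 difference of -1.21 ± 0.35 (SE, n = 3 each; limma adjusted p = 0.226 with 18 libraries, range over all settings 0.0264 to 0.5702). Without AOS, Scd1 had 27.9, 19.9 and 21.5 in HFD kidneys, against 82.1, 56.0 and 27.8 in controls. Fads1, a desaturase of polyunsaturated fatty acids, and Elovl1, which lengthens very long chains, were both called lower without control replicate 3, with log2 differences of -0.40 ± 0.11 and -0.19 ± 0.05 (SE, n = 3 each). Dgat2, which makes triglyceride, had 93.9, 90.7 and 96.7 in HFD+AOS kidneys, against 70.1, 80.4 and 83.8 in AOS kidneys.

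Among genes of cholesterol synthesis and uptake, more were lower than higher by unadjusted p, and 0 were called in either fit. Of 23 tested, 9 were lower and 1 higher at an unadjusted p under 0.05, beside 5.63% and 5.45% of all genes, and the list median was -0.14, between -0.21 and -0.10 over all settings. Msmo1, a sterol oxidase, had 17.2, 18.9 and 19.1 in HFD+AOS kidneys, against 29.4, 20.9 and 24.2 in AOS kidneys. Fdps, which makes farnesyl diphosphate, had 12, 14.3 and 14.9 in HFD+AOS kidneys, against 23.5, 14.98 and 17.9 in AOS kidneys. Neither overlapped, and the log2 differences were -0.40 ± 0.15 and -0.41 ± 0.16 (SE, n = 3 each). In the list of cholesterol efflux, Soat1, which esterifies cholesterol, was the single member of 8 with an unadjusted p under 0.05, at -0.18 ± 0.07 (SE, n = 3 each).

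Of 20 proximal tubule markers, 2 were higher and 0 lower at an unadjusted p under 0.05, beside 5.45% and 5.63% of all genes, and 0 were called in either fit. The groups did not overlap for 7 markers, all higher, beside 12.5% of all genes, and the list median was 0.14. The 2 by unadjusted p were Pck1 and Slc16a9, a carrier of the monocarboxylate family at 0.21 ± 0.09 (SE, n = 3 each). Pck1, the gluconeogenic enzyme, had 980, 885 and 874 in HFD+AOS kidneys, against 514, 550 and 664 in AOS kidneys, a log2 difference of 0.67 ± 0.25 (SE, n = 3 each; limma adjusted p = 0.3264). In the list of glycolysis and gluconeogenesis, Slc2a2, the basolateral glucose carrier GLUT2, had 65.9, 51.6 and 46.7 in HFD+AOS kidneys, against 37.3, 40.7 and 35.04 in AOS kidneys, and was called without control replicate 3. Of the 21 tested genes of that list, 2 (Pck1 and Slc2a2) were higher and 1, Aldoa at -0.18 ± 0.07 (SE, n = 3 each), was lower at an unadjusted p under 0.05, beside 5.45% and 5.63% of all genes, with a list median of -0.025.

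Transport genes outside the lists stood among the 158 and were picked after their values were seen. Slc6a19, the main carrier of neutral amino acids, had 152, 120 and 113 in HFD+AOS kidneys, against 81.6, 83.3 and 64.5 in AOS kidneys. Slc6a20a, an imino acid carrier, had 6.94, 7.24 and 7.63 in HFD+AOS kidneys, against 4.49, 4.43 and 4.14 in AOS kidneys. Car14, a membrane carbonic anhydrase, had 135, 117 and 115 in HFD+AOS kidneys, against 67.0, 87.5 and 82.3 in AOS kidneys. These 3 genes had log2 differences of 0.74 ± 0.28, 0.63 ± 0.20 and 0.63 ± 0.25 (SE, n = 3 each). Smaller differences were found for Slc4a4, the basolateral bicarbonate carrier, at 0.43 ± 0.10, Kcnj15, a potassium channel, at 0.41 ± 0.10, and Slc22a5, the carnitine carrier, at 0.32 ± 0.07 (SE, n = 3 each). Slc6a19 without AOS had 63.9, 64.3 and 55.9 in HFD kidneys, against 60.8, 65.6 and 163 in controls, so control replicate 3 was again the library apart.

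Of 21 tested antioxidant genes and NRF2 targets, 1 was higher and 3 lower at an unadjusted p under 0.05, beside 5.45% and 5.63% of all genes, with a list median of -0.11. Hmox1, the heme-degrading oxygenase, had 19.2, 21.1 and 20.7 in HFD+AOS kidneys, against 27.6, 30.5 and 33.6 in AOS kidneys, a log2 difference of -0.56 ± 0.13 (SE, n = 3 each; limma adjusted p = 0.1296 with 18 libraries, range over all settings 0.0302 to 0.424). Cat, the peroxisomal catalase, lay the other way, with 503, 512 and 505 in HFD+AOS kidneys, against 447, 394 and 446 in AOS kidneys. Both genes were called without control replicate 3, beside 0.765% of all genes called higher and 0.549% called lower. Sod1 and G6pdx, the cytosolic superoxide dismutase and the enzyme that opens the pentose phosphate pathway, were lower by unadjusted p and not called.

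In the breakdown of amino acids and kynurenine, 1 of 24 tested genes was higher and 4 were lower at an unadjusted p under 0.05, beside 5.45% and 5.63% of all genes, with a median of -0.001. Aadat, a kynurenine aminotransferase, had 140, 179 and 166 in HFD+AOS kidneys, against 255, 235 and 185 in AOS kidneys. Ddc, the decarboxylase that makes dopamine in the proximal tubule, had 24.5, 23.3 and 21.9 in HFD+AOS kidneys, against 39.7, 31.4 and 35.1 in AOS kidneys. Their log2 differences were -0.47 ± 0.12 and -0.58 ± 0.16 (SE, n = 3 each), and the groups did not overlap in either.

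Of 18 tested genes of the unfolded protein response, 2 were higher and 1 lower at an unadjusted p under 0.05, beside 5.45% and 5.63% of all genes, and the groups did not overlap for 3 higher and 6 lower members, beside 12.5% and 11.7%. Herpud1, a part of the degradation machinery of the endoplasmic reticulum, had 172, 143 and 160 in HFD+AOS kidneys, against 113, 119 and 112 in AOS kidneys, and was called without control replicate 3. Dnajb9, a co-chaperone of that compartment, was the other higher gene by unadjusted p, at 0.38 ± 0.16, and Sdf2l1, also of that compartment, the lower one, at -0.50 ± 0.22 (SE, n = 3 each). Calr, the chaperone calreticulin, had 521, 485 and 518 in HFD+AOS kidneys, against 561, 592 and 645 in AOS kidneys, without overlap but not past that p, and the list median was -0.099. Hspe1, a mitochondrial chaperonin, was the single heat shock chaperone of 14 with an unadjusted p under 0.05, at -0.33 ± 0.11 (SE, n = 3 each). Among the hypoxia-inducible genes, Adm (adrenomedullin, a vasodilator peptide) and Ndrg1 differed in opposite directions, at 0.70 ± 0.24 and -0.50 ± 0.16 (SE, n = 3 each), and neither was called.

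Immediate early genes, which respond to stimuli within minutes, had the highest list median, 0.44 over 15 tested, and the groups did not overlap for 6 members, all higher, beside 12.5% of all genes. At an unadjusted p under 0.05 there was 1 higher member, Dusp1, and 0 lower, beside 5.45% and 5.63% of all genes, and 0 were called in either fit. Dusp1, a phosphatase of MAP kinases, had 22.9, 23.1 and 46.2 in HFD+AOS kidneys, against 13.0, 13.2 and 13.2 in AOS kidneys, and Fos had 0.94, 0.82 and 7.91 in HFD+AOS kidneys, against 0.63, 0.59 and 0.35 in AOS kidneys. HFD+AOS replicate 3 was the highest library for both, and the list median ranged from 0.076 to 0.64 over all settings. Handling of the tissue was not recorded in the labels, and its part in these values was not tested.

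Markers of cell types other than the tubule were compared as sums over each list, and in bulk kidney fewer cells of a type and less RNA per cell cannot be told apart. The endothelial sum was 182, 161 and 138 in HFD+AOS kidneys, against 233, 195 and 179 in AOS kidneys. These sums overlapped between the groups. The list median was -0.22 over 12 genes, and 0 members passed an unadjusted p of 0.05, beside 5.45% of all genes higher and 5.63% lower. The groups did not overlap for 2 members, both lower, beside 11.7% of all genes. Emcn, a sialomucin of capillaries, had 32.1, 28.8 and 23.6 in HFD+AOS kidneys, against 44.5, 37.4 and 34.3 in AOS kidneys. In the list of fibroblasts, mesangium and smooth muscle, 3 of 12 were lower at an unadjusted p under 0.05, beside 5.63% of all genes. They were the contractile genes Tagln, Acta2 and Des, with Tagln at 8.60, 8.07 and 8.21 in HFD+AOS kidneys, against 16.9, 11.4 and 16.6 in AOS kidneys. In the collecting duct list, 2 of 16 members were lower at an unadjusted p under 0.05, beside 5.63% of all genes. They were Fxyd4, a regulator of the sodium pump, and Avpr2, the vasopressin receptor, at -0.77 ± 0.30 and -0.45 ± 0.20 (SE, n = 3 each). The groups did not overlap for 2 higher and 3 lower members of this list, beside 12.5% and 11.7% of all genes, so the higher share was near that of all genes. The 2 higher were Aqp3, a water channel, at 0.25 ± 0.15 and Car2, a carbonic anhydrase, at 0.14 ± 0.18 (SE, n = 3 each). The list median was 0.013, and 0 members were called in either fit. Slc14a2, the urea carrier of the inner medulla, had 0.11, 0.05 and 3.17 in HFD+AOS kidneys, against 5.60, 10.6 and 0.44 in AOS kidneys, with a log2 difference of -1.50 ± 1.16 (SE, n = 3 each). Its libraries spread widely within both groups, which overlapped.

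Fat and blood differed between libraries of the same group. The sum of 14 white and brown fat markers was 198, 305 and 506 in HFD+AOS kidneys, against 262, 266 and 768 in AOS kidneys. Its make-up differed too: AOS replicate 3 had 216 of Cfd and 33.3 of Adipoq, both white fat genes, and HFD+AOS replicate 3 had 73.6 of Ucp1, the uncoupling protein of brown fat. Hba-a1, an alpha globin, had 2256, 2924 and 1376 in HFD+AOS kidneys, against 6892, 6284 and 2461 in AOS kidneys, and overlapped only through AOS replicate 3. Alas2, the heme synthesis enzyme of red cells, followed with 9.51, 11.1 and 4.36 in HFD+AOS kidneys, against 22.4, 19.5 and 8.80 in AOS kidneys. The beta globin Hbb-bs went the other way, with 247, 404 and 254 in HFD+AOS kidneys, against 1.04, 2.93 and 213 in AOS kidneys. The second copies lay on the same sides, with log2 differences of -1.19 for the alpha globin Hba-a2 and 3.36 for the beta globin Hbb-bt. Of 6 red cell genes tested, 2 were higher and 3 lower at an unadjusted p under 0.05, beside 5.45% and 5.63% of all genes. Globin genes have near-identical copies between which reads could be split, so their values are uncertain, and the part of such splitting was not tested. Of these lists, 0 members were called in either fit, and the part of fat or blood in other differences was not tested.

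At an unadjusted p under 0.05, which 5.45% of all genes passed higher and 5.63% lower, Fmo2 was the single member of 23 drug metabolism genes, and Enpep, which trims angiotensin II, that of 15 genes of the renin-angiotensin system and sodium, both higher. In the cell cycle list, Mcm6 and Tyms were lower of 12, and in the lymphocyte list Cd8a was lower, at -0.82 ± 0.27 (SE, n = 3 each). The other 4 lymphocyte genes tested had differences from 0.057 to 0.24, overlapped and were not past that p, and the list median was 0.19. The lists of the loop and distal tubule, podocyte, macrophage and neutrophil, MHC class II, urothelium, tubule injury, oxidative phosphorylation, inflammation, interferon-stimulated, matrix, and osmolyte genes held 0 members past that p. The interferon-stimulated sum was 170, 94.3 and 132 in HFD+AOS kidneys, against 97.3, 80.9 and 386 in AOS kidneys, with AOS replicate 3 as the highest library. Oxidative phosphorylation had the narrowest spread, with 23 members between -0.17 and 0.13 and a median of -0.022.

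**Figure D4:**
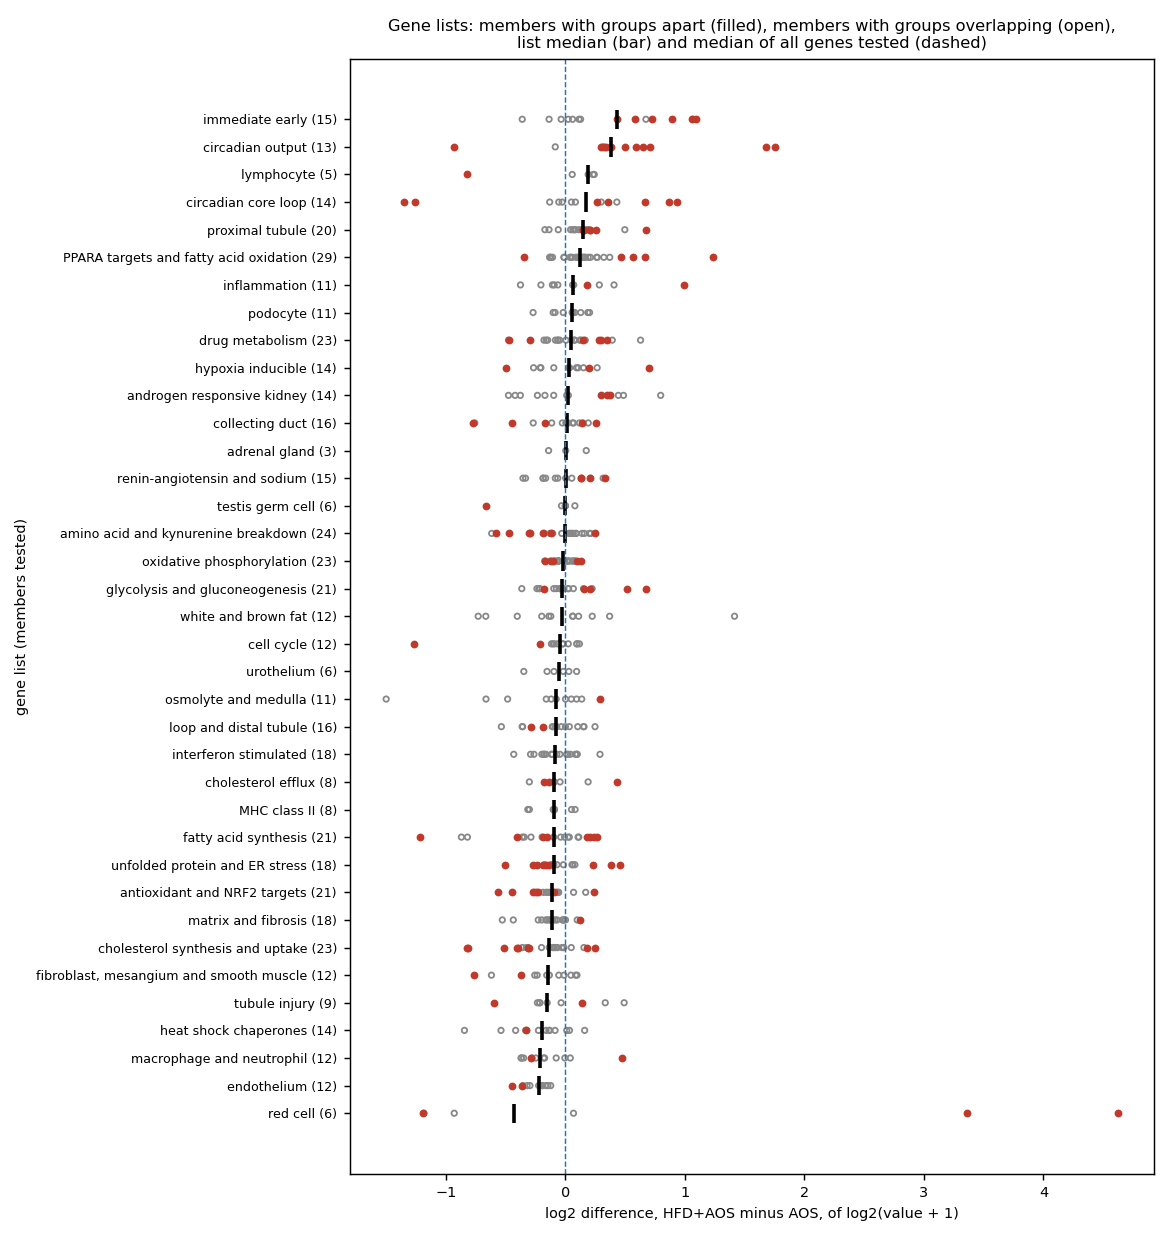
Log2 difference of log2(value + 1), HFD+AOS minus AOS (horizontal axis), of every tested member of 37 gene lists (vertical axis, with the number tested). Filled points are members whose groups do not overlap, open points those that overlap, the black bar is the list median and the dashed line the median of all genes; the immediate early (0.44) and circadian output (0.38) lists have the highest medians.

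The diet difference without AOS was taken from 6 other libraries, HFD against control, so the pair of comparisons shares none. In that comparison limma called 0 genes (0%), and 2091 (17.4%) had an unadjusted p under 0.05. Across all genes the log2 differences of the 2 comparisons had a Pearson r of 0.18, and 0.26 without control replicate 3, a description over genes that are not independent. Of the 158 genes called without control replicate 3, 109 had the same sign in HFD minus control without that library, and of the 24 named genes 16 did. The share of same signs over all genes tested was not counted, so nothing is read from these counts. Bcl6 differed by a like amount in both: without AOS it had 26.0, 27.7 and 37.7 in HFD kidneys, against 6.75, 16.5 and 4.52 in controls, a log2 difference of 1.77 (1.41 without control replicate 3) beside 1.98 with AOS. The difference of these differences was 0.21 ± 0.55 (SE, limma adjusted p = 0.8717).

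The test of that difference for every gene called 0 genes (0%), with 1490 (12.4%) at an unadjusted p under 0.05, and also 0 without control replicate 3. The 5 smallest p-values belonged to Hmox1, Hlf, Tmem220, Tmem192 and Gm14326, at a limma adjusted p of 0.2653 with 18 libraries (range over all settings 0.1305 to 0.5628). Hmox1 had opposite signs: without AOS it had 53.5, 44.1 and 53.5 in HFD kidneys, against 33.7, 38.7 and 39.3 in controls, and the log2 difference of differences was -0.99 ± 0.18 (SE). All 3 HFD libraries were above all controls, while all 3 HFD+AOS libraries were below all AOS libraries. Rarres2 had 88.8, 74.3 and 58.9 in HFD kidneys, against 51.3, 52.8 and 41.9 in controls, higher in each HFD library but by less than with AOS, and the difference of 1.18 ± 0.46 (SE, limma adjusted p = 0.3871) was not called. Ppara had 11.5, 10.2 and 11.3 in HFD kidneys, against 8.90, 10.96 and 12.1 in controls, which overlapped.

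**Figure D5:**
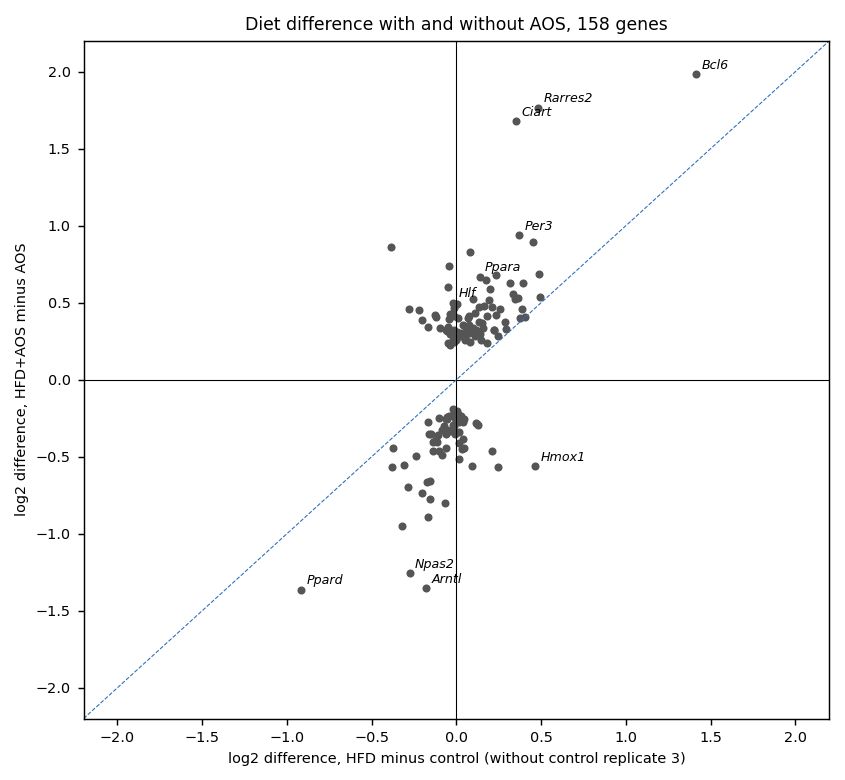
Log2 difference of HFD minus control without control replicate 3 (horizontal axis) and of HFD+AOS minus AOS (vertical axis) for the 158 genes called without that library; each point is a gene, and the dashed line marks equal differences. Bcl6 and Ppard lie far from 0 on both axes, Hmox1 has opposite signs, and most of the other genes lie nearer to 0 on the horizontal than on the vertical axis.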

How the data were processed

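Messenger RNA was sequenced from 18 kidney libraries in 6 groups of 3. The aligner was Bowtie 0.12.2 and the build mm10, per the submitters' processing notes. For counting, annotation and normalization, the method was not given in the sources used here. As deposited by the authors, values are a normalized signal for each gene and library with no unit named and no raw counts. Absolute depth is therefore unknown. Steps between low values gave the 6 libraries a relative depth of 1 to 1.021. Only values close to a gene's lowest non-zero value were used, which holds this figure near 1. It therefore cannot show whether the libraries differed in depth by a large amount. The table had 19545 rows. Spreadsheet-damaged date symbols (26 rows) and a second, lower entry of Plin2 were left out, and 0 value columns were left unmapped.

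Values were transformed as log2(value + 1) and fitted in R 4.3.3 with limma 3.58.1 (eBayes with trend and robust, 12 residual degrees of freedom, two-sided, Benjamini-Hochberg over all 12031 genes tested at 0.05). The 6 groups shared 1 estimate of the spread. Every SE given is limma's from that estimate with all 18 libraries, and n is the number of libraries in each group compared. Fits were tested on simulated data. Named genes were the 12 higher and 12 lower genes with the smallest p, groups that did not overlap and a mean of at least 1, since fewer than 10 genes were called, with predicted genes passed over (0 higher, 1 lower), and up to 4 members of each list. Some items are not reported here. Other genes and list members named were picked after their values were seen. The gene lists and members were chosen with earlier results of these data known, so list counts are descriptions. Gene positions are from GENCODE on mm10, promoters from RefSeq, with the first listed start of each gene. Motifs and figures were made with Python 3.11.15, pandas 2.3.3 and matplotlib 3.10.9. Alternatives covered the pseudocount, the filter on low values, scaling, the estimate of spread, the libraries in the fit and the replicate block.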

Additional observations from a re-analysis of the deposited data

How the results depend on the processing

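With 18 libraries, limma called 0 genes between HFD+AOS and AOS, also with pseudocounts of 0.1 and 0.5 and with no filter. It called 2 with a minimum value of 5, 4 with quantile normalization, 3 with equal medians, 4 without trend and robust, 2 with only these 6 libraries, 25 with the 12 libraries outside HFD and control, 158 without control replicate 3 and 276 with array weights, and leaving out 1 library of either group gave 0 to 11. Genes with an unadjusted p under 0.05 numbered 1333. They were 2439 with array weights, 2085 with the 6 libraries, 2097 with the 12 and 2188 without control replicate 3, and leaving out 1 library gave 848 to 1285. Settings chosen after seeing the data gave, without control replicate 3, 1 to 110 genes when another library was left out and 179 with quantile normalization, with up to 2177 and 2283 at an unadjusted p under 0.05. The interaction called 4 genes with no filter. HFD against control called 25 with no filter, all lower, and 0 to 1 when an HFD+AOS or AOS library was left out. The fits to 6 and 12 libraries hold no HFD or control library and gave no value for these 2 comparisons.

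Deviations of same-numbered libraries from their group means correlated across genes at r = -0.0198, 0.0573 and -0.0387. Deviations from a mean of 3 libraries are tied to each other, so these values cannot decide whether the numbers pair the samples. With the replicate block, limma called 0 genes with 18 libraries and 101 without control replicate 3, 1244 and 2117 genes had an unadjusted p under 0.05, and the interaction and HFD against control called 0.

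Over the planned settings, 81 gene values gave 1441 values, of which 0 changed sign and 108 passed the threshold where the 18-library fit did not. Depth is unknown, and 3 libraries a group limit the precision.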

Other observations

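Further genes among the 158 called by limma without control replicate 3, picked after their values were seen, encode metabolic enzymes and an oxidase. Ugt1a7c, a glucuronosyltransferase, had 160, 165 and 159.8 in HFD+AOS kidneys, against 112, 112 and 96.0 in AOS kidneys, a log2 difference of 0.60 ± 0.13 (SE, n = 3 each). Nox4, the NADPH oxidase most abundant in kidney, had 117, 94.1 and 103 in HFD+AOS kidneys, against 71.6, 84.9 and 69.4 in AOS kidneys. Suox, the sulfite oxidase of mitochondria, had 74.7, 60.2 and 51.6 in HFD+AOS kidneys, against 40.2, 45.5 and 40.9 in AOS kidneys. In these 3 genes every HFD+AOS library was above every AOS library. Pank3, which starts the synthesis of coenzyme A, and Gk, glycerol kinase, had log2 differences of 0.40 ± 0.09 and 0.34 ± 0.12 (SE, n = 3 each).

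On the lower side stood the cytoskeletal genes Actb (beta actin) and Pfn1 (profilin, which binds actin). Actb had 233, 275 and 292 in HFD+AOS kidneys, against 369, 337 and 353 in AOS kidneys, and Pfn1 had 279, 273 and 286 in HFD+AOS kidneys, against 329, 329 and 331 in AOS kidneys. Fxyd2, the gamma subunit of the sodium pump, had 5982, 6170 and 6343 in HFD+AOS kidneys, against 7251, 7550 and 7254 in AOS kidneys. Ecm1, a matrix protein, had 18.2, 17.1 and 12.8 in HFD+AOS kidneys, against 42.0, 26.1 and 28.8 in AOS kidneys, and Apoc3, an apolipoprotein that slows the clearance of triglyceride, had 5, 5.83 and 6.03 in HFD+AOS kidneys, against 14.1, 12.8 and 7.84 in AOS kidneys. The groups did not overlap in any of the 5, and the log2 differences were between -0.95 for Ecm1 and -0.24 for Pfn1.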
